A study of Mus musculus with 8 samples.

Results

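Of the 641130 probe sets on the array, 125529 were bright and carried no gene name. A probe set is a small group of probes read as 1 row of the deposited table. These rows were selected on 2 properties. The platform annotation gave them no gene symbol, and their mean log2 intensity on the 8 arrays reached 2.355, the median of the row means of the whole table, or more. They made up 19.6% of the table, 38.5% of the 326092 rows that named no gene and 39.2% of the 320565 rows that passed the same brightness cutoff. Another 307991 rows named 1 gene and 7047 named several. Of the rows naming 1 gene, 191376 (62.1%) passed the cutoff, and these are the rows that the unnamed ones are set against. The same cutoff was applied to named and unnamed rows, and these shares are given as a description.

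The arrays came from primary mouse embryonic fibroblasts, connective tissue cells bought as a stock and grown on dishes in a serum-containing medium. Cells of the hypoxia group spent 24 h in 1% oxygen, and cells of the normoxia group stayed in atmospheric oxygen. Each group had 4 arrays, and no genotype, treatment or agent other than oxygen separated them in the labels. The sources used here give neither the mouse strain nor the age of the embryos. They name no batch, and none was tested.

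Cells short of oxygen stabilise the hypoxia-inducible factors, transcription factors that switch on genes for glycolysis, blood vessel growth and mitochondrial turnover. Exon arrays carry probe sets for well-annotated exons and also for stretches known only from expressed sequence tags or gene predictions. Transcription outside named exons is common in mammalian cells and includes long noncoding RNAs, antisense transcripts, extended ends of genes and retained introns. Which of these, if any, a given unnamed row measures was not analysed here. A row without a symbol is unnamed in the annotation used and is not shown to lie outside genes, so no gene name, position or sequence is attached to any of them.

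Array medians over all rows lay between 2.38 and 2.44, and the intensities ran from 0.794 to 8358 before the log. The labelled cell type was checked against marker genes. For 11 of 11 fibroblast markers the level lay above the 95th percentile of the odorant and vomeronasal receptor rows described next, with a list median of 7.74 to 8.05 on hypoxia arrays and 7.77 to 8.12 on normoxia arrays. The same held for 0 of 6 epithelial, 0 of 5 endothelial, 0 of 6 blood and macrophage, 2 of 5 neural and 1 of 4 muscle markers. The median of the neural list was 2.96 to 3.20 in hypoxia and 2.90 to 3.39 in normoxia, and that of the muscle list was 2.69 to 3.25 in hypoxia and 2.90 to 3.39 in normoxia.

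Most of the unnamed rows were only moderately bright. Their median level was 3.47 on the log2 scale, with 5% under 2.44 and 5% above 7.49, while the bright rows naming 1 gene had a median of 4.18. Odorant and vomeronasal receptors, the sensory proteins of the nose, are not known as fibroblast transcripts, and the 3438 rows naming one of them gave a measured level to set the others against. Receptor rows had a median of 1.14 and a 95th percentile of 3.19, and 408 of them (11.9%) passed the brightness cutoff. Of the unnamed rows 74400 (59.3%) lay above that 95th percentile, against 75% of the bright rows naming 1 gene. The remaining unnamed rows therefore had levels that receptor rows also reached.

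The cutoff itself fell in a dense part of the distribution. The unnamed row next above it had a mean of 2.35481, with 2.85, 2.23, 3.6 and 2.99 on the hypoxia arrays and 1.80, 2.30, 0.663 and 2.40 on the normoxia arrays. Another row just inside had group means of 2.41 in hypoxia and 2.29 in normoxia. The pair of rows just outside, at 2.35477 and 2.35475, had 2.40 and 2.32 in hypoxia and 2.31 and 2.39 in normoxia. Rows on either side of the cutoff were thus alike in level.

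The share of unnamed rows was lowest at intermediate levels and highest at the top of the scale. They made up 47.3% of all rows between 2.35 and 4, 30.1% between 4 and 6, 27.3% between 6 and 8, 37.0% between 8 and 10 and 47.9% between 10 and 12. At 12 or above stood 100 rows, of which 84 were unnamed and 15 named 1 gene. The 10 brightest rows of the table were all unnamed. The brightest had 12.84, 12.80, 12.76 and 12.66 on the hypoxia arrays and 12.74, 12.94, 12.79 and 12.82 on the normoxia arrays. Its groups overlapped, and its difference of -0.06 (hypoxia minus normoxia, SE 0.24) had an adjusted p = 0.95 in limma.

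These brightest unnamed rows differed little between the oxygen levels. The differences of the 84 rows ran from -0.495 to 0.479 with a median of 0.13, and their median SD was 0.073 in hypoxia and 0.10 in normoxia. In the limma fit over all rows 0 of the 84 were called at an adjusted p of 0.05. An unadjusted p under 0.05 was reached by 0, and the smallest adjusted p was 0.47. That fit gave the 10 brightest rows an SE of 0.24 or 0.25, so it could hardly call differences of this size. These counts of 0 therefore do not show that the rows were unchanged. Their arrays separated more often than that fit would call. In 28 rows all hypoxia arrays lay above all normoxia arrays, and in 14 rows all lay below. Over all rows these shares were 3.79% above and 3.53% below. At levels from 7.489 upward, 9.81% of unnamed rows lay above and 12.9% below, beside 8.04% and 16.9% of named rows. Such separation was thus more frequent in bright rows of both kinds than in the whole table. With a variance model that lets the spread depend on brightness, limma called 9 of the 84 higher and 10 lower. Over all rows, bright and dim, that model called 0.241% higher and 0.117% lower. Among the 1062 unnamed rows at 10 or above, the plain fit called 0. In it 36 differed upward and 8 downward at an unadjusted p of 0.05. Of all 641130 rows, 35601 and 36868 did so in that fit. The other variance model called 88 of the 1062 higher and 41 lower.

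As a set and with the deposited scaling, the unnamed rows were slightly dimmer in hypoxia, a direction that turned after cyclic loess (median difference 0.0327). Their array medians were 3.588, 3.573, 3.587 and 3.627 in hypoxia and 3.662, 3.658, 3.656 and 3.671 in normoxia. The groups did not overlap, and the means were 3.594 ± 0.023 in hypoxia and 3.662 ± 0.0065 in normoxia (SD, n = 4 each). For the bright rows naming 1 gene the array medians were 4.236, 4.157, 4.235 and 4.164 in hypoxia and 4.337, 4.454, 4.415 and 4.361 in normoxia. These groups did not overlap either, and the gap was wider.

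**Figure D1:**
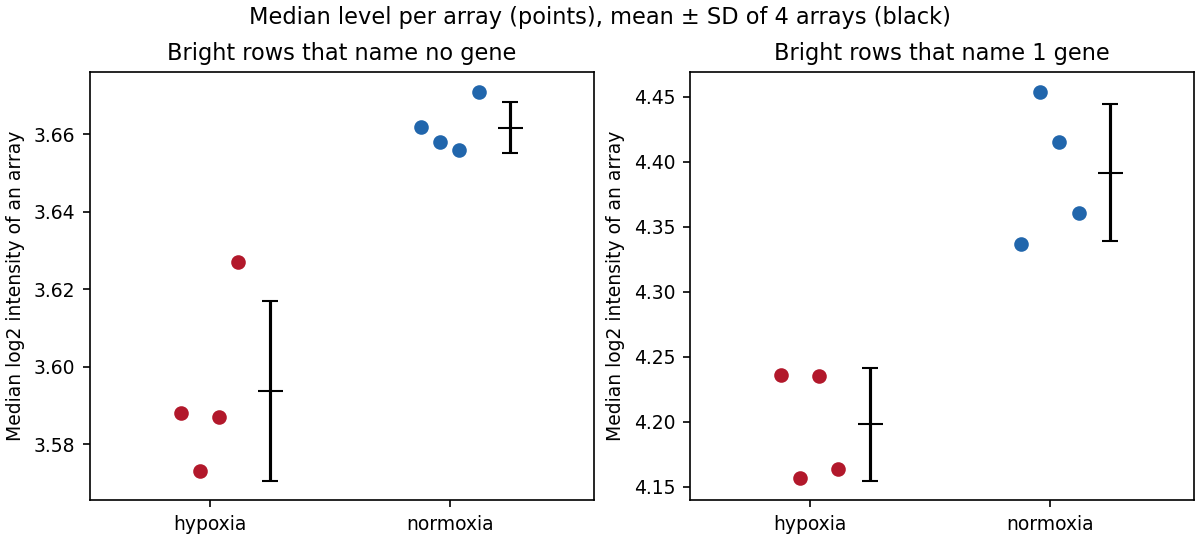
Median log2 intensity of each array, hypoxia left of normoxia, for the bright rows that name no gene (left) and those that name 1 gene (right), on axes that do not start at 0, with the deposited scaling. Points are single arrays and black bars the mean ± SD (n = 4 per group). In both sets the 4 hypoxia arrays lie below the 4 normoxia arrays, from 3.573 to 3.627 against 3.656 to 3.671 for the unnamed rows.

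The plot of array medians shows that the shift was small beside the range of levels within a set. The median difference of the unnamed rows was -0.0973 with the deposited scaling, and only the value after cyclic loess had the opposite sign among the alternatives run. Its size depended on the processing, with -0.0281 after quantile normalization. With brightness taken from the hypoxia arrays alone it was -0.00123, and from the normoxia arrays alone -0.176. Negative differences made up 57.7% of the unnamed rows, 65.5% of the bright rows naming 1 gene and 48.8% of all rows. The median was -0.192 for the bright rows naming 1 gene, 0.187 for the dim rows naming no gene and 0.0159 for all rows. With this scaling bright rows thus tended to be lower and dim rows higher in hypoxia, whether or not they carried a name, except that the median of the bright unnamed rows turned after cyclic loess. Most differences were small, with 25% of unnamed rows below -0.443 and 25% above 0.248, and 1% lay below -1.47 and 1% above 1.31.

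The difference varied with brightness, so the unnamed rows were compared with rows naming 1 gene at like level. The unnamed rows were divided into 20 equal bins of level. Their median difference was -0.00241 in the dimmest bin and -0.192 at its lowest, between levels 4.068 and 4.336. For rows naming 1 gene the bin medians ran from -0.277 to -0.0651. The unnamed rows had the higher median in 20 of 20 bins, by 0.0623 to 0.127, and by 0.087 on average. All bins were read on the same 8 arrays, so they are not independent of each other.

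**Figure D2:**
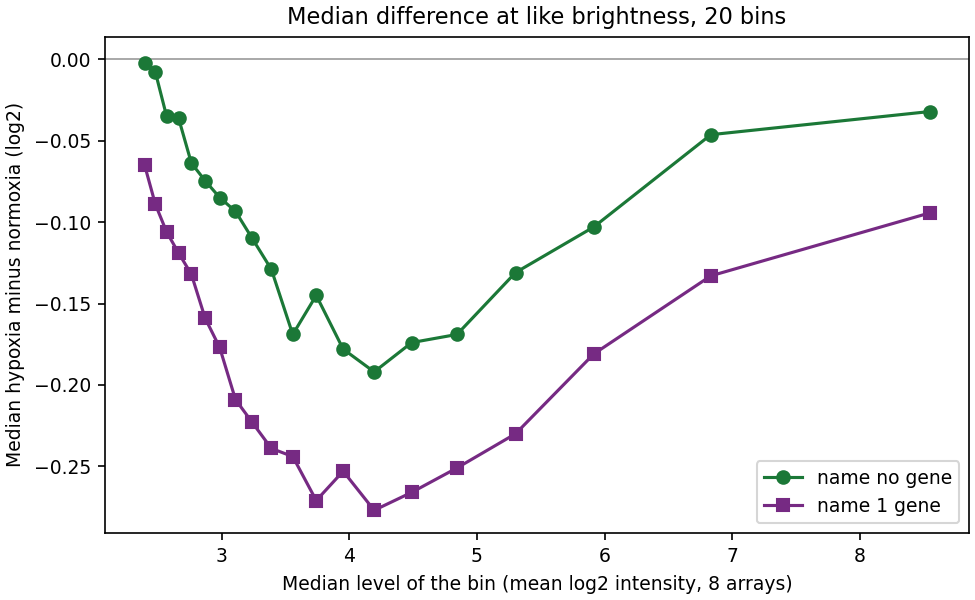
Median difference in log2 intensity (hypoxia minus normoxia) in 20 bins of level, for bright rows that name no gene and bright rows that name 1 gene. The line of the unnamed rows lies above that of the named rows in all 20 bins, and both lie below 0 with the deposited scaling.

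The plot of the difference by brightness shows the gap at every level. The same gap was measured on each array, as the median level of the unnamed rows minus that of the named rows in each bin, averaged over the bins. It was 0.0109, 0.0451, 0.046 and 0.131 on the hypoxia arrays and -0.0137, -0.0488, -0.0515 and -0.012 on the normoxia arrays. The groups did not overlap, although hypoxia replicate 1 lay close to the normoxia arrays and hypoxia replicate 4 lay farthest from them. No p is given for these values, since the set was chosen with results of these data known. The average gap was 0.0348 when brightness was taken from the normoxia arrays alone and 0.141 when it was taken from the hypoxia arrays alone.

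The hypoxia arrays were the more variable. The median SD of an unnamed row was 0.604 in hypoxia and 0.428 in normoxia, and the SD was larger in hypoxia for 69.1% of them. Rows naming 1 gene gave 0.559 in hypoxia and 0.392 in normoxia, with 69.3% larger in hypoxia, so both kinds of row showed the wider spread of the hypoxia arrays. The brightest rows varied least. In the dimmest bin the median SD was 0.688 in hypoxia and 0.509 in normoxia, and in the brightest bin it was 0.199 in hypoxia and 0.171 in normoxia.

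**Figure D3:**
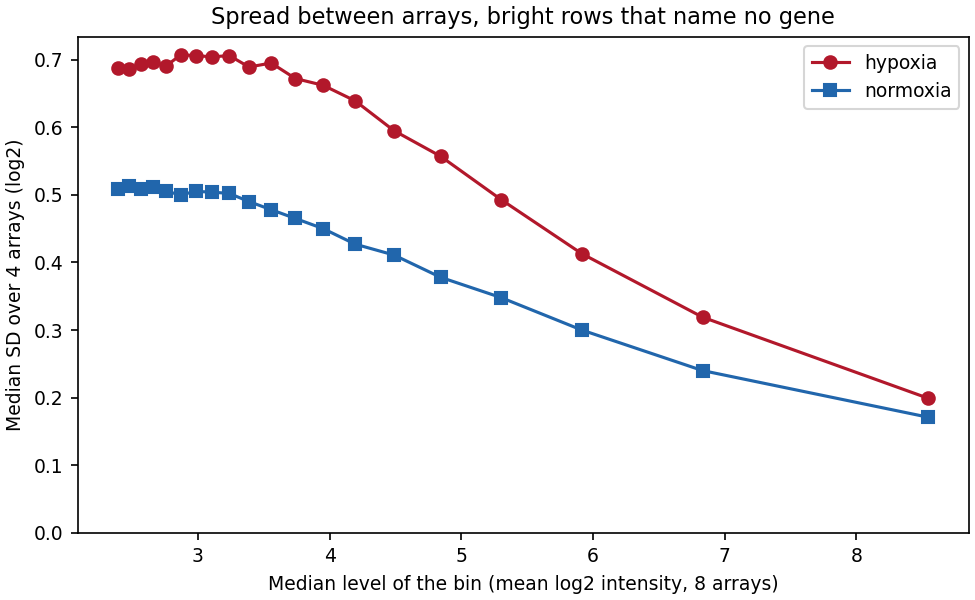
Median SD over 4 arrays of the log2 intensity in 20 bins of level, for the unnamed rows in hypoxia (circles) and normoxia (squares). The hypoxia line lies above the normoxia line in each bin, at 0.688 against 0.509 in the dimmest bin and 0.199 against 0.171 in the brightest.

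Correlations between arrays showed the same order as the plot of spread by brightness. Over the unnamed rows Pearson's r between hypoxia arrays was 0.816 to 0.846, between normoxia arrays 0.88 to 0.917, and between arrays of different groups 0.824 to 0.872. These are correlations over 125529 rows that share their arrays, and rows are not independent replicates. Bright rows naming 1 gene gave 0.825 to 0.851 within hypoxia, 0.881 to 0.927 within normoxia and 0.823 to 0.878 between the groups. A pair of hypoxia arrays was thus no more alike than a hypoxia array and a normoxia array.

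Single rows were tested with limma over the whole table, with adjustment over all 641130 rows, and a row is called when its adjusted p is under 0.05. Of the unnamed rows 50 (0.0398%) were called higher in hypoxia and 6 (0.00478%) lower. Over all rows 0.0384% were called higher and 0.00328% lower, and over bright rows naming 1 gene 0.0956% were called higher (183 rows) and 0.0047% lower (9 rows). In this fit the share of unnamed rows called higher was thus near that of the table and below that of equally selected named rows. Because brightness was a mean over both groups, a row could enter the set through the group in which it was high. Of the 50 rows called higher, 15 had a normoxia mean under the cutoff and passed only through the hypoxia arrays, and of the 6 called lower, 4 had a hypoxia mean under it and passed only through the normoxia arrays. Such rows had to differ, so these counts support nothing about the set. With brightness taken from the normoxia arrays alone 35 were called higher and 9 lower, and with brightness from the hypoxia arrays alone 55 and 2. At the share found among named rows in each bin of level, the unnamed rows would have held 100.0 higher and 8.9 lower calls. These values are a description with the same limit, since rows of both kinds could pass the cutoff through 1 group. No difference between the sets was tested.

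Counts of separated rows gave another view. In 3546 unnamed rows (2.82%) all hypoxia arrays lay above all normoxia arrays, and in 5373 (4.28%) all lay below. Over all rows these shares were 3.79% and 3.53%, and over bright rows naming 1 gene 2.24% and 6.75%. All 56 called unnamed rows were separated in this way. A difference of at least 1 on the log2 scale was found upward in 3406 unnamed rows (2.71%) and downward in 6467 (5.15%). Over all rows these shares were 2.87% and 3.66%, and over bright rows naming 1 gene 2.05% and 6.34%. In each of these sets calls leaned towards higher values while differences of that size leaned towards lower ones.

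Spread accompanied this imbalance among the largest differences. For the 20 largest upward differences the median SD was 0.53 in hypoxia and 0.61 in normoxia, 17 rows were separated, and the smallest adjusted p of an uncalled row was 0.058. For the 20 largest downward differences the median SD was 1.1 in hypoxia and 0.60 in normoxia, 15 rows were separated, and the smallest adjusted p of an uncalled row was 0.05 after rounding. Part of the largest downward differences therefore stood on hypoxia arrays that disagreed among themselves.

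Among the largest differences of the table the unnamed rows held 22 of the 100 upward and 33 of the 100 downward, beside their 19.6% of the table and 39.2% of the bright rows. The bright rows naming 1 gene, 29.8% of the table, held 75 and 52. Among the 1000 largest in each direction the unnamed rows held 24.1% upward and 31.3% downward. The upward share was thus near their share of the table, and each of these shares lay below their share of the bright rows. Being bright was part of how they were chosen, and dim rows filled few of the first 100 upward places.

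Called rows fell into classes by where their lower group stood. For 19 of the 50 rows called higher, the normoxia mean lay under the 95th percentile of the receptor rows, with hypoxia means of 3.64 to 7.06 (median 4.67) and normoxia means of 0.89 to 3.10 (median 1.6). Their differences ran from 2.17 to 4.38. The fold of such a row depends on the background left in the normoxia value. For the other 31, both groups stood above that level, with hypoxia means of 6.43 to 10.93 (median 8.58) and normoxia means of 3.39 to 8.97 (median 6.28). Their differences ran from 1.77 to 4.19, which is 3.41-fold to 18.3-fold with a median of 4.75-fold.

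**Figure D4:**
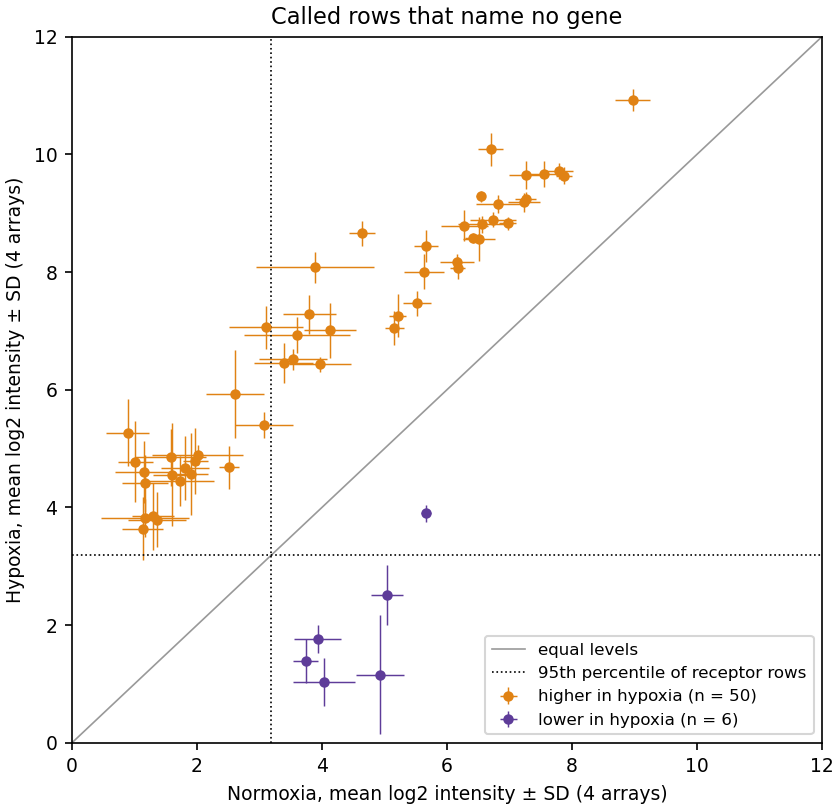
Mean log2 intensity in hypoxia (vertical axis) against normoxia (horizontal axis), with bars of ± SD over 4 arrays, of the 56 unnamed rows called by limma, 50 higher and 6 lower in hypoxia, with dotted lines at the 95th percentile of the receptor rows (3.19). All 50 rows called higher have hypoxia means above that level, and 19 of them have normoxia means below it.

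The plot of called rows also shows that the 6 rows called lower were dimmer than most of those called higher. Calls upward were most frequent in the brightest part of the unnamed rows but did not rise steadily with level. Of the 1062 unnamed rows at 10 or above, 0 were called. Divided into 4 equal parts by level, the unnamed rows of the brightest part held 32 of the 50 calls upward (0.102%, beside 0.158% of equally bright named rows), and the next parts down held 3, 10 and 5. Calls downward numbered 1, 1, 2 and 2 in the same order.

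The largest called difference belonged to the row with probe set ID 4697701. It read 5.31, 4.45, 5.65 and 5.68 on the hypoxia arrays and 0.92, 1.36, 0.61 and 0.66 on the normoxia arrays. The row was near the floor of the table in every normoxia array and well above it in every hypoxia array, so that it passed the brightness cutoff only through the hypoxia arrays and its place in the set follows from the difference itself. The same is true of 3 of the 10 largest upward calls, this one included. Its means were 5.27 ± 0.57 in hypoxia and 0.89 ± 0.34 in normoxia (SD, n = 4 each), a difference of 4.38 (SE 0.34, 95% interval 3.63 to 5.14, adjusted p = 0.0035). It was the fifth largest upward difference in the whole table.

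Probe set 5586123 came next and was bright in both groups. It read 7.87, 8.07, 7.92 and 8.44 in hypoxia and 3.24, 5.12, 4.15 and 3.04 in normoxia. The hypoxia arrays lay close together and the normoxia arrays were spread over more than 2 log2 units, without overlap. The means were 8.08 ± 0.26 in hypoxia and 3.89 ± 0.95 in normoxia (SD, n = 4 each), a difference of 4.19 (SE 0.43, 95% interval 3.24 to 5.15, adjusted p = 0.011). The call was lost without hypoxia replicate 4 (adjusted p = 0.053), normoxia replicate 1 (adjusted p = 0.066) or normoxia replicate 3 (adjusted p = 0.053).

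The third largest called row had tight values in both groups. It read 8.47, 8.55, 8.70 and 8.94 in hypoxia and 4.52, 4.95, 4.48 and 4.61 in normoxia, with a difference of 4.02 (SE 0.26, 16.3-fold, adjusted p = 0.0018). This was the smallest adjusted p among the unnamed rows. The fourth read 6.74, 7.02, 7.59 and 6.88 in hypoxia and 2.95, 3.93, 3.0 and 2.52 in normoxia, a difference of 3.96 (SE 0.35). The fifth read 4.08, 4.33, 5.21 and 5.51 in hypoxia and 0.60, 1.06, 1.21 and 1.17 in normoxia, a difference of 3.77 (SE 0.36). Its normoxia values lay near the median of the receptor rows.

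The sixth, eighth and ninth largest called rows were above the receptor level in both groups. The sixth had means of 7.28 in hypoxia and 3.80 in normoxia, a difference of 3.48 (SE 0.31). The eighth was the brightest of the 10 largest, with 9.83, 9.94, 10.15 and 10.46 in hypoxia and 6.70, 6.98, 6.60 and 6.53 in normoxia. Its difference of 3.39 (SE 0.27, adjusted p = 0.0035) made it 10.5-fold higher in hypoxia. The ninth had means of 6.93 in hypoxia and 3.6 in normoxia (adjusted p = 0.025). The other 2 of the 10 largest had hypoxia means of 4.60 and 5.93 beside normoxia means of 1.16 and 2.61, under the receptor level.

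The brightest of all called rows stood lower in the order of differences. It read 10.88, 11.03, 10.67 and 11.11 in hypoxia and 8.75, 9.31, 9.10 and 8.74 in normoxia. Its difference of 1.95 (SE 0.27, adjusted p = 0.044) was 3.87-fold.

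Rows called lower were few, and 4 of the 6, including the pair with the largest falls, were in the set only through the normoxia arrays in which they were high. With brightness taken from the hypoxia arrays alone, 2 unnamed rows were called lower. Probe set 5357549 read 2.46, 1.44, 0.25 and 0.48 in hypoxia and 5.10, 4.85, 4.45 and 5.33 in normoxia. Its hypoxia arrays disagreed by more than its normoxia arrays did, and all lay below them. The means were 1.16 ± 1.01 in hypoxia and 4.93 ± 0.38 in normoxia (SD, n = 4 each), and the difference of -3.77 (SE 0.46, 95% interval -4.79 to -2.75, adjusted p = 0.026) was the largest fall of the whole table. The call held without hypoxia replicate 1 (adjusted p = 0.019) and was lost without any other single array (adjusted p between 0.066 and 0.13).

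Probe set 4810846 read 0.99, 0.48, 1.44 and 1.21 in hypoxia and 3.78, 4.05, 4.73 and 3.57 in normoxia. Its arrays did not overlap, and its difference was -3.0 (SE 0.34, 95% interval -3.75 to -2.26, adjusted p = 0.016). The call held in 2 of the 8 fits that left out 1 array and was lost in the others (adjusted p between 0.054 and 0.079). The next 3 rows had hypoxia means of 2.52, 1.39 and 1.77 and normoxia means of 5.04, 3.74 and 3.93. In these 5 rows the hypoxia mean lay within the range of the receptor rows. The sixth was measured above it in both groups, at 4.07, 3.87, 3.74 and 3.93 in hypoxia and 5.66, 5.78, 5.62 and 5.61 in normoxia. Its difference of -1.76 (SE 0.25, adjusted p = 0.047) was the smallest of the 6 and rested on the tightest values.

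**Figure D5:**
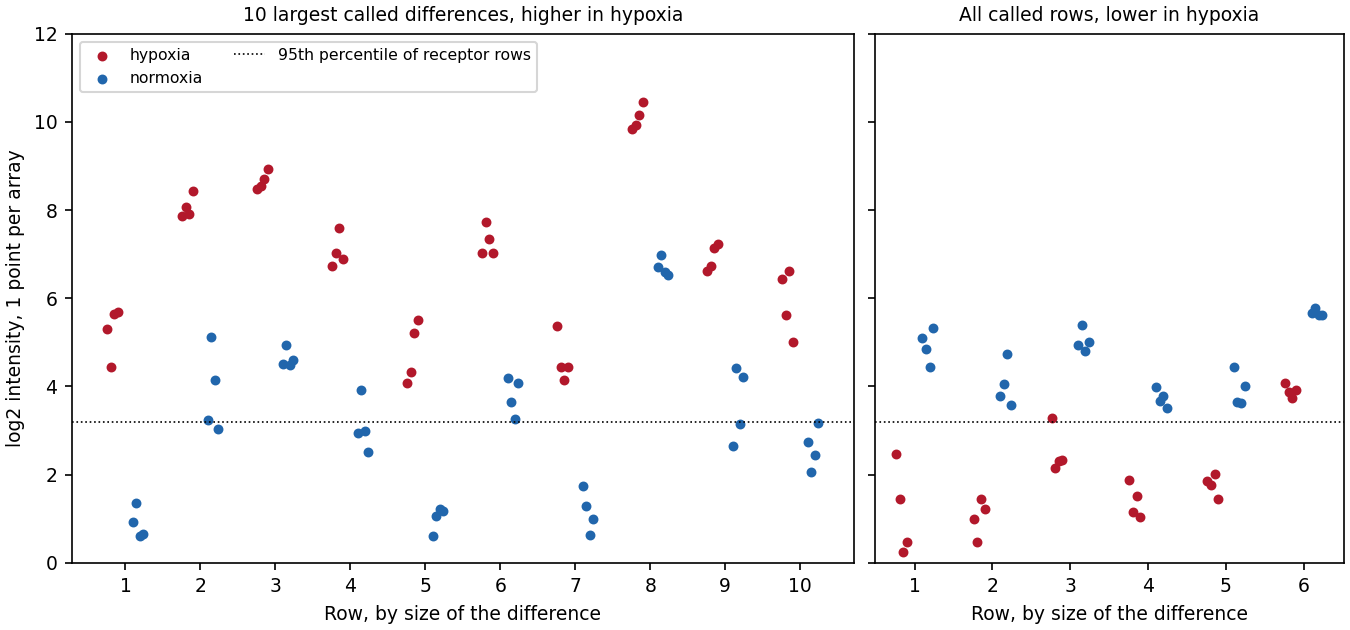
Log2 intensity on each array of the 10 largest called upward differences of unnamed rows (left) and of the 6 rows called lower (right), ordered by size of the difference, with hypoxia left of normoxia in each row and a dotted line at the 95th percentile of the receptor rows (3.19). The groups do not overlap in any of these rows, and 5 of the 6 rows called lower have hypoxia means under the line.

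The plot of values by array shows how these rows differ in spread. Some upward rows have normoxia arrays close to 1 and others lie above the receptor level throughout, while the row with the largest fall has the widest hypoxia values among those called lower.

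The number of calls depended on single arrays. Without 1 array the upward calls numbered from 7 (without normoxia replicate 3) to 32 (without hypoxia replicate 2), and the downward calls from 0 to 8. Of the 50 rows called higher, 7 were called whichever array was left out, with differences of 2.75 to 4.38, and of the 6 called lower 0 were. The 56 rows kept their sign under every alternative run. Their groups did not overlap, so leaving out an array, the pseudocount, weights, variance model or block could not turn it. The kept sign is therefore no test of these rows. When the variance was allowed to depend on brightness, all 56 stayed called. The unnamed rows called then numbered 712, with a median level of 7.73. They were 519 higher (0.413% of the unnamed rows) and 193 lower (0.154%). Over all rows, bright and dim, that model called 0.241% higher and 0.117% lower.

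Position could not be read from the order of the probe set IDs. Of 147954 pairs of rows with neighbouring IDs that named 1 gene each, 10 named the same gene. Over 24396 neighbouring pairs of unnamed rows the correlation of the differences was 0.01, and 0 runs of called rows were found. ID order therefore carried no information on which unnamed rows lie together in the genome.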

How the data were processed

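RNA of 8 fibroblast samples was amplified from 50 ng, labelled and hybridised to mouse exon arrays. The labels give 4 arrays per group, and the methods, which call the replicates biological, state a higher number. The table deposited by the authors held linear signal intensity per probe set. Its background correction, normalization and summarization were not given in the sources used here. Values were taken to log2 without a pseudocount or further scaling, and each array column was assigned to a sample by its label. Groups were compared over all rows by linear models in limma (version 3.58.1, run in R 4.3.3), with moderated two-sided tests, no covariates and Benjamini-Hochberg adjustment over all rows at a threshold of 0.05. The steps were tested on simulated data. Rows given by ID were the largest 2 called differences in each direction without overlap, and the next 8 were given by rank. The brightest called row and the brightest row were added after their values were seen. The members of the set and the lists were chosen with earlier results of these data known. Alternatives covered scaling, ranks, pseudocount, brightness rule, variance model, array weights, replicate number and leaving out each array. The number of arrays limits the precision.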

Additional observations from a re-analysis of the deposited data

How the results depend on the processing

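The 50 upward and 6 downward calls among unnamed rows changed with many of the alternatives. On relative ranks within each array 0 and 0 were called (5638 and 4905 at an unadjusted p of 0.05), with a pseudocount of 1 80 and 20, and with limma's trend and robust options 519 and 193. The setting for an exact rank-sum test per row, without adjustment, gave 3546 and 5373. These are the counts of fully separated rows given above and add no further test. With the fit on bright rows only 13 were called lower, with brightness taken from the hypoxia arrays 2, and with the cutoff at the 75th percentile 1. Leaving out each array gave 7 to 32 higher and 0 to 8 lower (6567 to 10094 lower at an unadjusted p of 0.05). With the replicate number as a block (replicate block) 0 and 0 were called (5245 and 9035 at an unadjusted p of 0.05). Same-numbered arrays correlated at -0.083 to 0.052 in their deviations. These few correlations gave no sign of pairing by number. They cannot exclude a shared batch, which was not tested. Quantile normalization and cyclic loess each kept 50 of the upward and 5 of the downward calls.

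The median difference of -0.0973 was -0.0281 after quantile normalization and 0.0327, reversed, after cyclic loess, and -0.379 percentile points on relative ranks. It was -0.176, -0.00123 and -0.116 with brightness from the normoxia arrays, from the hypoxia arrays and at the 75th percentile. The average gap of 0.087 to equally bright named rows was 1.14 percentile points on ranks, 0.0348 with brightness from the normoxia arrays and 0.141 from the hypoxia arrays. It stayed positive under every alternative run. The cause of these changes was not tested. The median of all rows fitted was -0.16 in the fit on bright rows only and 0.016 in the fit on all rows of all arrays as deposited. Rows near the receptor level limit what a fold change can show.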

Other observations

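Array weights estimated by limma from all rows were lower for the hypoxia arrays, at 0.639 to 0.777, than for the normoxia arrays, at 1.17 to 1.79. With these weights 45 of the 50 upward and 4 of the 6 downward calls among the unnamed rows were kept. In 5.29% of the unnamed rows 1 hypoxia array stood apart from the other 3 by Dixon's 95% limit, and in 5.25% 1 normoxia array did, where chance gives about 5%.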
